A study of Rattus norvegicus with 22 samples.

Results

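The proteasome subunit genes were examined in kidney RNA of 22 PKD/Mhm (Cy/+) rats. Members were the genes whose rat symbol, looked up from the Entrez identifier, begins with Psma, Psmb, Psmc, Psmd or Psme and whose mean estimated count over the 22 rats was at least 10. All 45 genes with these prefixes reached that minimum, out of 17334 genes listed, of which 12572 reached it. They comprised 31 constitutive subunits, 5 immunoproteasome genes and 9 other genes with the same prefixes. Of those 9, Psmc3ip is no subunit of the proteasome. It encodes a recombination factor named after its binding to Psmc3, and it is kept only because the prefix takes it in. Psme3ip1, likewise named after an interaction with Psme3, is no subunit either, but it was classed here with the other activators.

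All rats were PKD/Mhm (Cy/+), a strain that carries the Cy mutation on one chromosome and develops cystic kidneys, so no group was free of the disease allele. RNA came from the snap-frozen left kidney at an age of 8 months. The untreated group held 6 rats, and the other groups were treated monthly for 6 months with human adipose-derived stromal cells injected intraperitoneally (ASC i.p., 6 rats) or infused intravenously (ASC i.v., 6 rats), or with medium conditioned by such cells (ASC-derived CM, 4 rats). The labels of the ASC-derived CM rats do not give the route. Each sample was a separate rat, and as a model the cells were of human origin while the hosts were rats. Because the RNA came from whole tissue, fewer cells of a type and less RNA per cell cannot be told apart in any value below.

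The proteasome degrades proteins that are tagged with ubiquitin. Its barrel-shaped 20S core is built of alpha subunits (Psma genes) and beta subunits (Psmb genes), of which Psmb5, Psmb6 and Psmb7 carry the chymotrypsin-like, caspase-like and trypsin-like active sites, and the 19S cap of ATPases (Psmc genes) and non-ATPase subunits (Psmd genes) binds, unfolds and feeds in the substrate. In leukocytes, and in other cells exposed to interferon gamma, Psmb8, Psmb9 and Psmb10 take the places of Psmb5, Psmb6 and Psmb7 in newly built cores, and Psme1 and Psme2 form the PA28 activator. This immunoproteasome favours peptides that fit MHC class I molecules. In the kidney, tubule cells carry mainly the constitutive form.

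The windows around the transcription start were searched for motifs known from inducible and from constitutive subunit genes, and stretches that carry matches are shown because the rule that chose the members did not use sequence. The counts were not tested. Windows of 250 bases before to 50 bases after the start were taken from RefSeq (build GRCr8) for 40 of the 45 members. The core of the interferon-stimulated response element was searched as GAAANNGAAA on both strands. It was found in 3 of the 5 immunoproteasome windows (60.0%), in 3 of 27 constitutive windows (11.1%) and in 3.34% of the windows of 13633 listed genes. It lay in the windows of Psmb10, Psme2 and Psmb8, printed 5′ to 3′ on the strand of the gene with the match in capitals. The Psmb10 stretch (chr19:50743293-50743385, minus strand) holds 2 matches before the start, the Psme2 stretch (chr15:33052775-33052824, minus strand) holds 1 before the start, and the Psmb8 stretch (chr20:4657016-4657045, minus strand) holds 1 that spans the annotated start and reads as its reverse complement.
Psmb10: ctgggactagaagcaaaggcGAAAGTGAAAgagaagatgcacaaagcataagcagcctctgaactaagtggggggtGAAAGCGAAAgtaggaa
Psme2: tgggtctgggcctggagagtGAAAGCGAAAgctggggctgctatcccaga
Psmb8: gtgctgtggcTTTCGCTTTCacttccttgt

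The core of the antioxidant response element, TGACNNNGC on both strands, is the letter pattern read by Nfe2l1 and Nfe2l2, transcription factors known to drive constitutive subunit genes. It was found in 6 of 27 constitutive windows (22.2%), in 0 of 5 immunoproteasome windows, in 2 of 8 windows of other members (25.0%) and in 13.5% of all windows. Of the constitutive genes with a match, Psmb5 and Psmb6 are shown, since they are the partners that Psmb8 and Psmb9 replace. The window of Psmb7, the partner of Psmb10, held no match. The Psmb5 stretch is chr15:32047411-32047459 on the minus strand and the Psmb6 stretch is chr10:55737844-55737887 on the plus strand, both before the start.
Psmb5: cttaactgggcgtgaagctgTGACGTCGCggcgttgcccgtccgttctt
Psmb6: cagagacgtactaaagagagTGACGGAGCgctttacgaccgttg

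Motifs of general promoters were common in both sets. The CCAAT box was in 14 of 27 constitutive and 2 of 5 immunoproteasome windows, beside 37.9% of all windows, and the GC box GGGCGG in 19 of 27 and 3 of 5, beside 49.4%. The gamma-activated site, searched as TTCNNNGAA, was in 3 of 27 and 1 of 5, beside 7.70%. These are matches of letters, and whether a factor bound them was not measured.

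Sequencing gave 12195663 to 14734753 estimated counts per rat (median 12915564), and the 45 members together took 0.508 to 0.616% of them. On the first principal component of the log2 CPM of all 12867 genes tested (42.8% of the variance), 5 rats stood apart at 38.4 to 56.9, while the other 17 reached at most 20.1. These were ASC i.p. rats 1 and 3, ASC i.v. rats 1 and 3 and ASC-derived CM rat 1, and no untreated rat was among them. Their animal numbers were 5, 7, 3, 9 and 2, while the untreated rats were animals 1, 12, 18, 22, 23 and 24. No animal numbered 10 or higher stood apart. Low numbers and treatment thus largely coincided, and the part of either was not tested. The mean log2 CPM of their leukocyte markers was 3.58 to 4.88, against 4.87 to 5.90 in the other 17. Their fibroblast markers stood at 6.45 to 6.95 against 7.29 to 8.31, and their proximal tubule markers at 8.36 to 9.12 against 7.52 to 8.81. The main results on the immunoproteasome genes are therefore given with and without these rats. Of the kidney marker lists, all 10 proximal tubule, 5 distal tubule and 5 collecting duct genes were tested in these libraries, with summed TPM of at least 1156, 2180 and 788 in every rat, as kidney tissue should have. Markers of urothelium, the lining of the renal pelvis, ranged from 2.48 to 545 in summed TPM among ASC i.v. rats and reached at most 16.7 in any other group.

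Per unit of transcript length, most members were among the abundant transcripts of the kidney. The median of the mean TPM (a share of all transcripts that corrects for length and depth) was 145 over the 31 constitutive subunits, against 19.8 over all tested genes. Among alpha subunits the mean over 22 rats ran from 45.6 TPM for Psma3 to 386 TPM for Psma7, and among structural beta subunits from 161 TPM for Psmb2 to 412 TPM for Psmb1. The catalytic beta subunits lay closer together, at 227 TPM for Psmb6, 267 TPM for Psmb5 and 294 TPM for Psmb7. In the 19S cap the ATPases ranged from 55.7 TPM (Psmc6) to 206 TPM (Psmc3) and the non-ATPase subunits from 40.2 TPM (Psmd11) to 161 TPM (Psmd8). The 19S cap thus stood below the core in transcript level, with a median of 145 TPM for its ATPases and 101 TPM for its non-ATPase subunits against 209 TPM for the alpha subunits.

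Psme1 was the most abundant member of all, at 586 TPM, while Psme2, whose product assembles with that of Psme1 into one ring, stood at 187 TPM. The inducible catalytic genes followed at 178 TPM for Psmb8, 151 TPM for Psmb9 and 130 TPM for Psmb10. Each of them stood below its constitutive partner. Psme3 (79.1 TPM) encodes the nuclear activator PA28gamma and Psme4 (43.3 TPM) the activator PA200. The assembly chaperones of the cap lay between 34.9 TPM (Psmd5) and 65.7 TPM (Psmd10), and Psmc3ip stood at 23.7 TPM. Psma8, an alpha subunit of the testis, and Psmb11, a beta subunit of the thymic cortex, were the lowest, at 3.16 and 2.86 TPM.

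**Figure D1:**
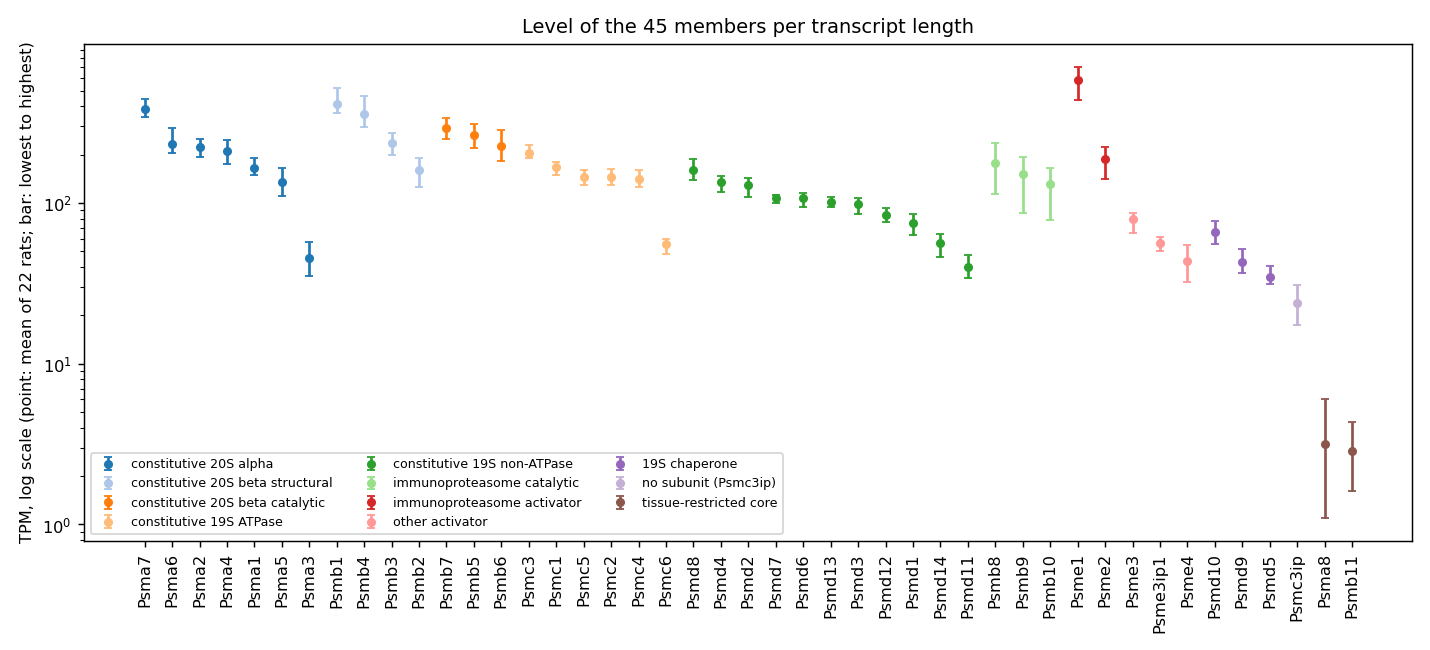
Mean TPM of each of the 45 members over 22 rats on a log axis, coloured by class, with bars from the lowest to the highest rat. Psme1 stands highest at 586 TPM, Psma8 and Psmb11 stand near 3 TPM, and the 3 inducible catalytic genes have longer bars than most constitutive subunits.

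For some members the level is uncertain. RefSeq holds 49 further entries whose symbols mark them as copies of members, mostly pseudogenes, that have no values in the tables, and reads from such copies could have been shared out. Fractional counts, which arise where reads fit several genes, appeared in all 22 rats for Psma3, Psma8, Psmb11, Psmd9, Psme2 and Psme3 and in 21 of 22 for Psmc6. The counts of the other 38 members were whole in every rat. Fractional counts and listed copies did not match gene by gene. No such copy is listed for Psma8, Psmb11 or Psmd9, while Psmb3 with 10 copies and Psma6 with 5 had whole counts.

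Most constitutive subunits varied less between rats than the median tested gene. The coefficient of variation of the constitutive CPM (counts scaled to library size after TMM) over the 22 rats had a median of 9.94%, against 15.9% over all tested genes, and ran from 6.36% for Psmc3 to 16.3% for Psmb6. Psmb6 and Psma3 lay at percentiles 51.2 and 44.4 of tested genes. Genes were not matched by level, and these subunits had a median of 145 TPM beside 19.8 TPM. Psme1 and Psme2 lay in the same range, at 9.26% and 10.8%. The inducible catalytic genes varied more, with 15.03% for Psmb8, 15.9% for Psmb10 and 18.5% for Psmb9.

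Whether the treatments altered the proteasome genes was asked by comparing each treated group with the untreated rats. In the quasi-likelihood fit of edgeR, adjusted over 12867 genes by the Benjamini-Hochberg method, 0 of the 45 members were called in any of the 3 treated groups, and 0.0% of all genes were called in each of these comparisons. The smallest adjusted p of a member was 0.77 in ASC i.p. (Psmd13), 0.52 in ASC i.v. (Psmd14) and 0.72 in ASC-derived CM (Psmd3). In the test of any difference among the 4 groups, 11 of all genes (0.0855%) and 0 members were called, and the smallest adjusted p of a member was 0.91. Before adjustment, a p under 0.05 was reached by 4 members (8.89%) in ASC i.p. beside 3.89% of all genes, by 5 (11.1%) in ASC i.v. beside 8.81%, and by 0 in ASC-derived CM beside 6.6%. In the test of any difference it was reached by 1 member (2.22%) beside 4.11%. DESeq2 likewise called 0 members in each comparison, while it called 0.0%, 0.183%, 0.0262% and 0.288% of all genes in the i.p., i.v., CM and any-group comparisons. No member had values that did not overlap between a treated group and the untreated rats, beside 0.14%, 0.179% and 1.42% of all genes.

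The constitutive subunits had small fold changes that lay mostly on one side of 0 in both cell-treated groups. In ASC i.p., 30 of 31 had a positive log2 fold change (median 0.12), where 46.2% of all genes did. In ASC i.v., 31 of 31 were positive (median 0.12), where 47.5% of all genes were, and in ASC-derived CM 19 of 31 (median 0.03), where 49.1% were. Marker lists moved beside these values: podocyte and endothelium markers had positive fold changes for 0 of 6 genes in each treated group (median log2 fold change -0.28, -0.46 and -0.43), and proximal tubule markers for 7, 7 and 8 of 10 (median 0.44, 0.35 and 0.61), with 0 called. Their part in the members' values was not tested. The constitutive subunits are correlated with each other, so the counts are no independent repeats, and the comparisons share their untreated rats. Direction depended on scaling: on the log2(TPM + 1) scale, tested with limma, the median of all genes itself shifted to -0.10, -0.12 and -0.07, and only 20, 17 and 5 of the 31 constitutive subunits were then above 0. Relative to the median of all genes, 30, 31 and 19 of 31 were higher on that scale, and 30, 31 and 20 on the count scale. Without the 5 rats that stood apart the constitutive medians were 0.04, 0.12 and -0.04, and 29, 30 and 7 of 31 were above 0. ASC-derived CM rat 1 alone decided the last of these: with only it left out, 6 of 31 were above 0 in ASC-derived CM, with a median of -0.05.

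The 5 immunoproteasome genes did not share this side. In ASC i.p. 2 of 5 had a positive log2 fold change (median -0.04), in ASC i.v. 3 of 5 (median 0.01) and in ASC-derived CM 0 of 5 (median -0.08). With the 5 rats that stood apart left out, 5, 5 and 3 of 5 were positive, with medians of 0.08, 0.13 and 0.03, and again 0 of the 45 members were called in any comparison. In that smaller set, 0.0%, 0.0% and 0.00776% of all genes were called.

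**Figure D2:**
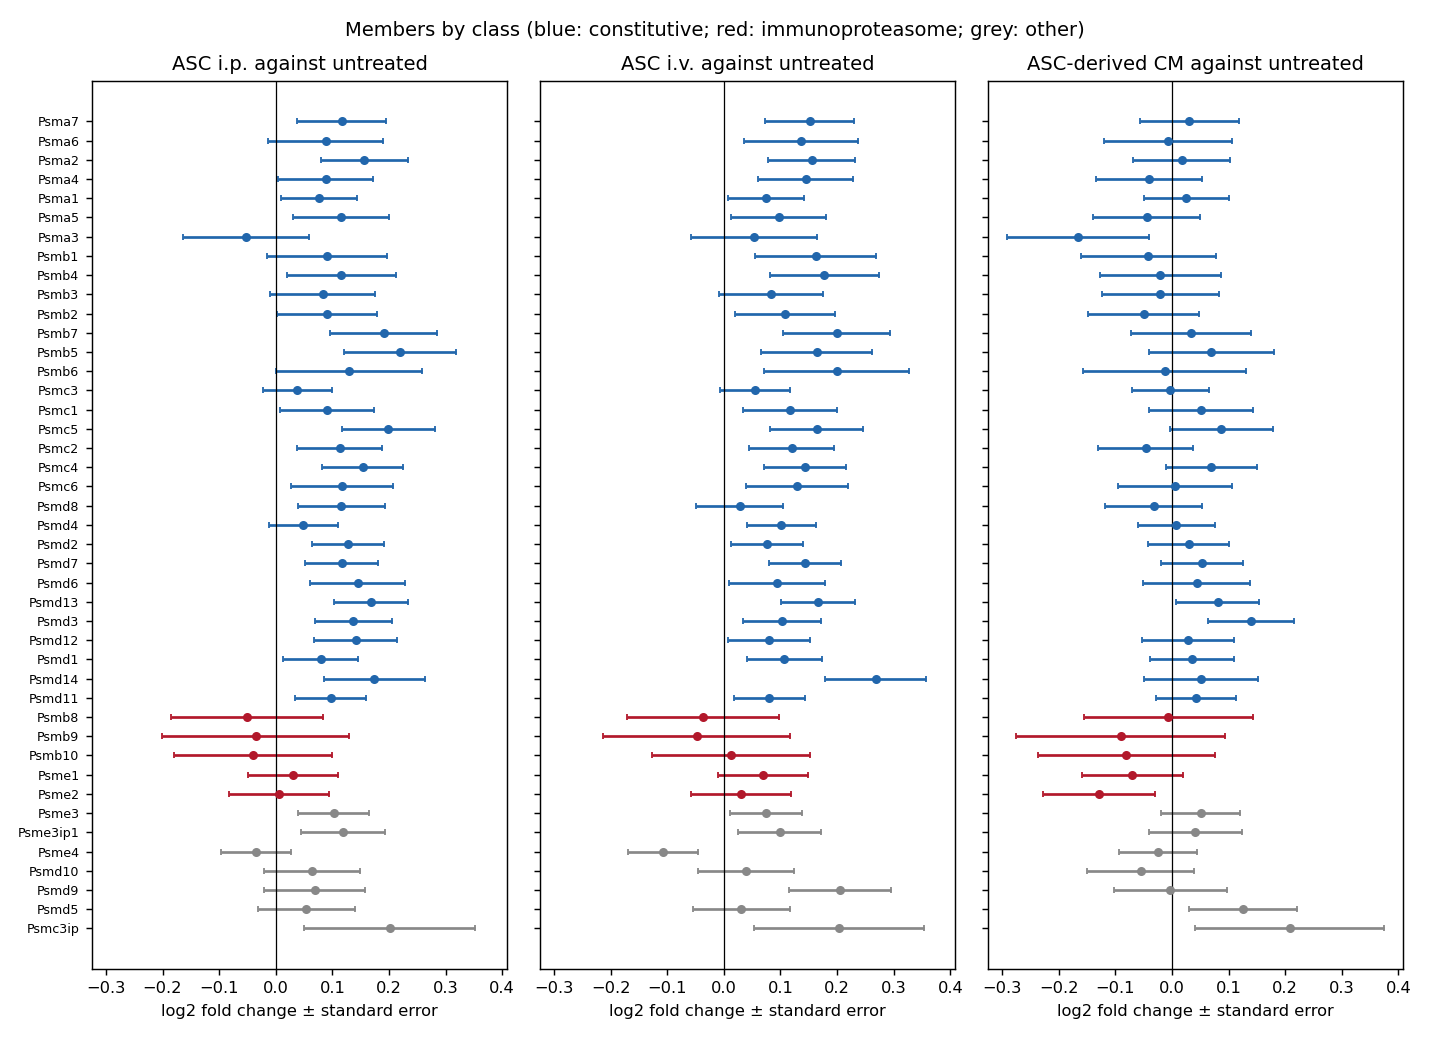
Log2 fold change against untreated rats with its standard error from the edgeR fit, for 43 members in 3 comparisons, with Psma8 and Psmb11 left out because of their low counts. On this count scale the constitutive subunits (blue) lie right of 0 in both cell-treated groups, except Psma3 in ASC i.p., and on both sides in ASC-derived CM, while on the log2(TPM + 1) scale only 20, 17 and 5 of 31 were above 0; the immunoproteasome genes (red) lie around 0, and no member passed the adjusted threshold.

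Among core subunits, Psmb5 and Psmb7 had the largest log2 fold changes in ASC i.p., and Psmb6 and Psmb7 in ASC i.v. Psmb5 (chymotrypsin-like site) had 104 to 136 CPM in untreated rats (median 119), 118 to 158 CPM in ASC i.p. (median 139), 104 to 150 CPM in ASC i.v. (median 135), and 149, 127, 108 and 116 CPM in the ASC-derived CM rats. The groups overlapped, with a log2 fold change of 0.22 ± 0.10 (SE; edgeR adjusted p = 0.77) in ASC i.p. and 0.16 ± 0.10 (adjusted p = 0.54) in ASC i.v. Psmb7 (trypsin-like site) ran from 140 to 169 CPM in untreated rats (median 155), from 150 to 217 CPM in ASC i.p. (median 173), from 147 to 193 CPM in ASC i.v. (median 183), and stood at 181, 171, 142 and 140 CPM in ASC-derived CM.

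Its log2 fold change was 0.19 ± 0.09 in ASC i.p. and 0.20 ± 0.09 in ASC i.v., with edgeR adjusted p-values of 0.77 and 0.52. Psmb6 (caspase-like site) had the widest spread of the constitutive set, with 75.2 to 116 CPM in untreated rats (median 91.1), 78.7 to 120 CPM in ASC i.p. (median 102), 82.2 to 129 CPM in ASC i.v. (median 102) and 102, 97.3, 81.9 and 83.5 CPM in ASC-derived CM. All 3 treated groups contained rats within the untreated range. The alpha subunit Psma3 went against the other constitutive subunits in ASC i.p., at -0.05 ± 0.11, and was lowest in ASC-derived CM at -0.17 ± 0.12 (edgeR adjusted p = 0.83), where its rats had 62.4, 64.1, 57.1 and 49.3 CPM beside 57.7 to 71.7 CPM in untreated rats. Its reads are among those that may be shared with copies.

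In the 19S cap, Psmd14, the enzyme that cuts the ubiquitin chain off the substrate, had the smallest p of all members. It had 48.1 to 58.8 CPM in untreated rats (median 51.4), 49.1 to 70.1 CPM in ASC i.p. (median 60.4) and 57.5 to 71.1 CPM in ASC i.v. (median 63.5), and the ASC-derived CM rats had 59.4, 60.7, 54.5 and 43.6 CPM. The lowest ASC i.v. rat lay just under the highest untreated rat. Its log2 fold change was 0.27 ± 0.09 in ASC i.v. (1.20-fold; edgeR adjusted p = 0.52) and 0.17 ± 0.09 in ASC i.p. (adjusted p = 0.77).

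Psmd13, a structural subunit of the lid, ran from 91.5 to 103 CPM in untreated rats (median 95.8), from 99.0 to 124 CPM in ASC i.p. (median 107) and from 101 to 117 CPM in ASC i.v. (median 108). It was 0.17 ± 0.07 higher on the log2 scale in both groups, with an edgeR adjusted p of 0.77 in ASC i.p. and 0.52 in ASC i.v. The ATPase Psmc5 was 0.20 ± 0.08 higher in ASC i.p. (edgeR adjusted p = 0.77), with 110 to 144 CPM beside 100 to 123 CPM. In ASC-derived CM the smallest member p belonged to Psmd3, a lid scaffold, with 165, 165, 141 and 151 CPM beside 134 to 151 CPM in untreated rats and a log2 fold change of 0.14 ± 0.08 (adjusted p = 0.72). None of these subunits passed the adjusted threshold. Without the 5 rats that stood apart the ASC i.p. log2 fold changes were 0.12 for Psmb5, 0.08 for Psmb7, 0.07 for Psmd14, 0.09 for Psmd13 and 0.11 for Psmc5, each lower than with them. In ASC i.v. they were then 0.16 for Psmb5, 0.16 for Psmb7, 0.24 for Psmd14 and 0.18 for Psmd13.

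The inducible catalytic genes had group means that hardly differed and a spread that did. Psmb8, which replaces Psmb5, had 104 to 135 CPM in untreated rats (median 117), 91.0 to 138 CPM in ASC i.p. (median 116), 78.7 to 141 CPM in ASC i.v. (median 122), and 89.0, 124, 123 and 139 CPM in ASC-derived CM. Psmb9, which replaces Psmb6, had 66.6 to 89.8 CPM in untreated rats (median 83.6), 61.7 to 103 CPM in ASC i.p. (median 81.0), 44.5 to 106 CPM in ASC i.v. (median 81.7), and 54.5, 78.6, 81.2 and 90.7 CPM in ASC-derived CM. Psmb10, which replaces Psmb7, had 70.3 to 86.9 CPM in untreated rats (median 76.1), 61.8 to 92.6 CPM in ASC i.p. (median 76.5), 48.1 to 101 CPM in ASC i.v. (median 82.4), and 55.6, 81.7, 73.6 and 80.9 CPM in ASC-derived CM.

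For each of these genes both the lowest and the highest rat were treated rats, and the untreated rats lay between them. The 4 lowest rats were the same for Psmb8, Psmb9 and Psmb10: ASC i.v. rat 1, ASC-derived CM rat 1 and ASC i.p. rats 3 and 1, all among the 5 that stood apart. Log2 fold changes of the 3 genes were between -0.09 and 0.01 in the 3 comparisons, with standard errors of 0.13 to 0.18 and edgeR adjusted p-values of 0.916 or more. Without the 5 rats they were 0.08, 0.12 and 0.11 for Psmb8 in the i.p., i.v. and CM groups, and 0.11, 0.13 and 0.04 for Psmb9. Psmb10 then stood at 0.07, 0.19 and 0.03 in the same order.

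The activator pair was steadier. Psme1 had 316 to 363 CPM in untreated rats (median 341), 317 to 384 CPM in ASC i.p. (median 343), 291 to 426 CPM in ASC i.v. (median 353), and 311, 332, 309 and 343 CPM in ASC-derived CM. Psme2 had 155 to 178 CPM in untreated rats (median 162), 149 to 191 CPM in ASC i.p. (median 161), 131 to 211 CPM in ASC i.v. (median 164), and 142, 153, 141 and 167 CPM in ASC-derived CM. The lowest and the highest rat were ASC i.v. rats 1 and 2 for both genes, and all groups overlapped. The largest difference was that of Psme2 in ASC-derived CM, at -0.13 ± 0.10 (edgeR adjusted p = 0.83). Without the 5 rats the log2 fold changes were 0.09, 0.14 and -0.05 for Psme1 and 0.05, 0.12 and -0.10 for Psme2 in the i.p., i.v. and CM groups.

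**Figure D3:**
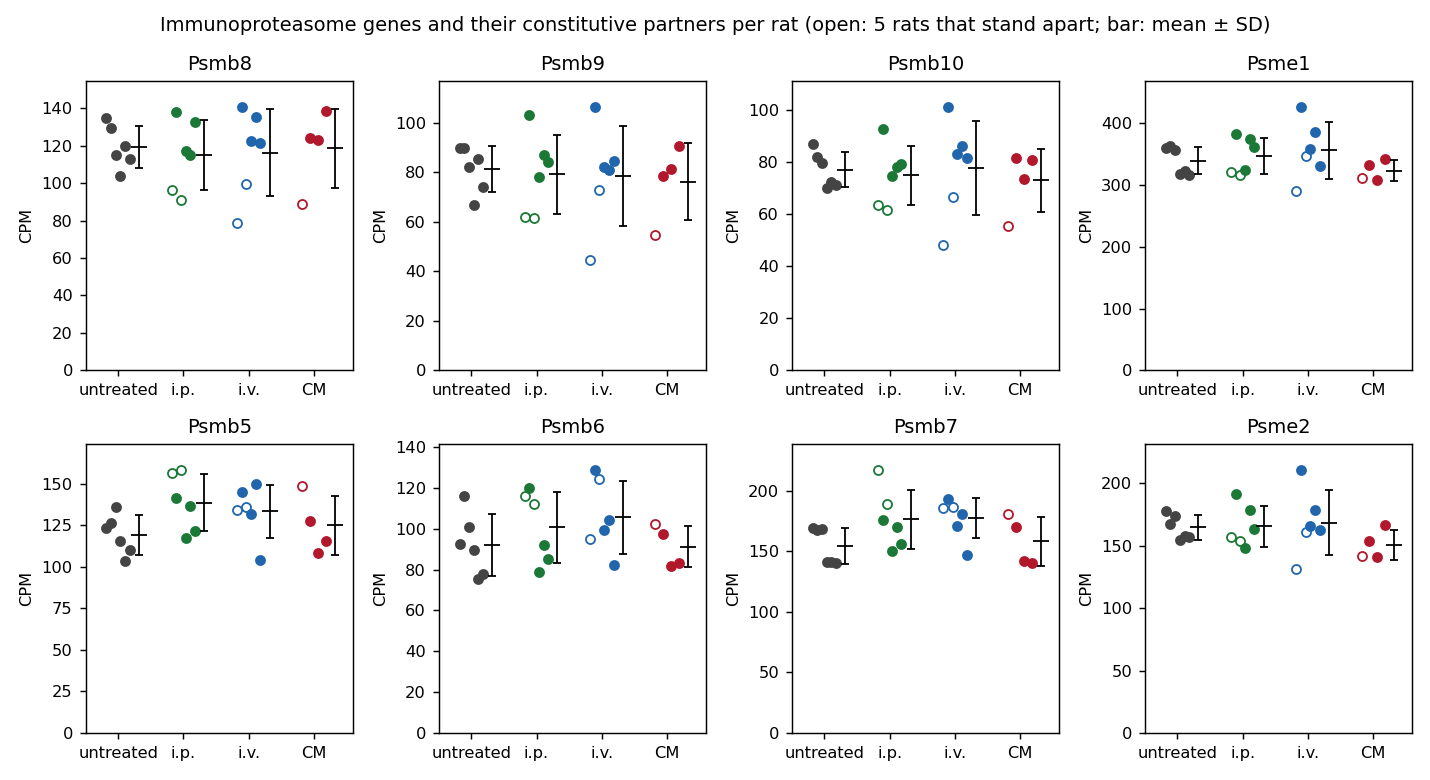
CPM of the 5 immunoproteasome genes and of Psmb5, Psmb6 and Psmb7 in every rat by group, with the mean and SD (untreated, i.p. and i.v. 6 rats each, CM 4 rats) and with open circles for the 5 rats that stood apart. Open circles are the lowest values of Psmb8, Psmb9 and Psmb10 in each treated group, and they lie in the upper part of the range for Psmb7.

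The balance of inducible and constitutive transcripts was measured within each rat as the ratio of TPM, log2((TPM + 1)/(TPM + 1)), which does not depend on library scaling. The subunit proteins and the assembled forms were not measured. For Psmb10 over Psmb7 the ratio was 0.458 to 0.498 in untreated rats (median 0.486), 0.282 to 0.510 in ASC i.p. (median 0.464), 0.251 to 0.538 in ASC i.v. (median 0.465) and 0.298 to 0.559 in ASC-derived CM (median 0.483). The SD of the log2 ratio was 0.05 in untreated rats and 0.36, 0.41 and 0.40 in the treated groups. The medians were close while the treated groups reached far lower.

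For Psmb8 over Psmb5 the ratio was 0.614 to 0.853 in untreated rats, 0.424 to 0.804 in ASC i.p., 0.422 to 0.857 in ASC i.v. and 0.440 to 0.872 in ASC-derived CM. For Psmb9 over Psmb6 it was 0.612 to 0.912, 0.427 to 0.825, 0.383 to 0.828 and 0.429 to 0.885 in the same order. In all 3 pairs the 5 rats that stood apart held the 5 lowest ratios of the 22, without overlap: at most 0.538, 0.487 and 0.347 for Psmb8/Psmb5, Psmb9/Psmb6 and Psmb10/Psmb7, where the other 17 rats had at least 0.612, 0.612 and 0.444.

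The 9 differences of mean log2 ratio between a treated group and the untreated rats were all negative, from -0.28 (Psmb9/Psmb6, ASC i.v.) to -0.09 (Psmb8/Psmb5, ASC-derived CM). In two-sided exact permutation tests the unadjusted p-values ran from 0.16 to 0.71 and the values adjusted over the 9 tests from 0.50 to 0.71. With 6 rats against 6 the smallest p these tests can give is 0.0022. Left without the 5 rats, 5 of the 9 differences were positive: 0.12 for Psmb8/Psmb5 in ASC-derived CM, 0.11 and 0.10 for Psmb9/Psmb6 in ASC i.p. and ASC-derived CM, and 0.03 and 0.07 for Psmb10/Psmb7 in ASC i.v. and ASC-derived CM.

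**Figure D4:**
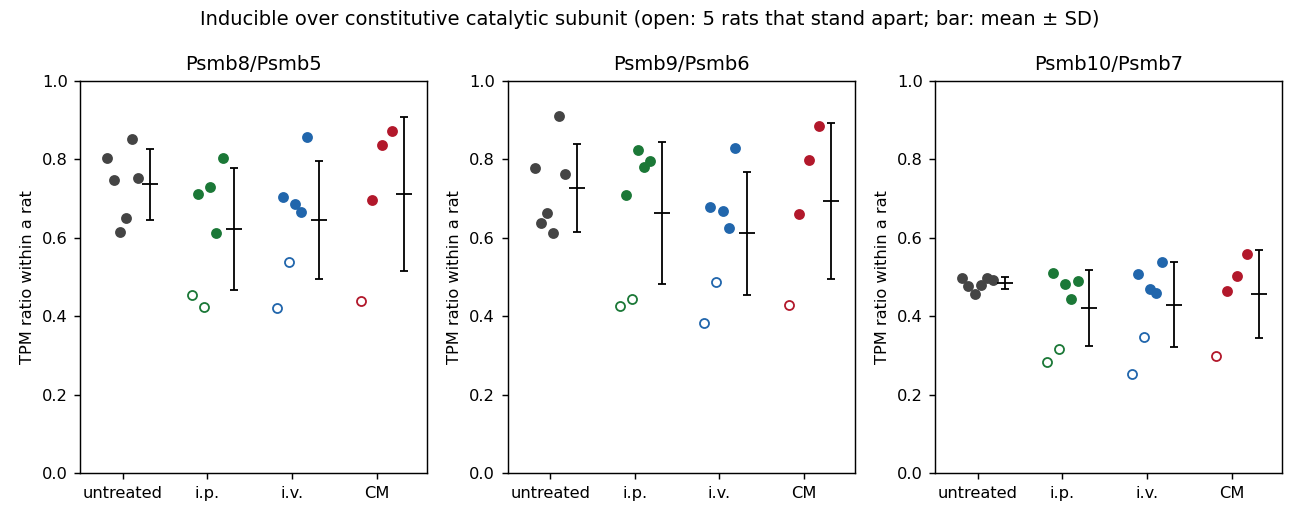
Ratio of TPM of an inducible catalytic subunit to its constitutive partner in each rat by group, with the mean and SD and with open circles for the 5 rats that stood apart. The untreated Psmb10/Psmb7 ratios lie within 0.458 to 0.498, and the open circles lie below all filled circles in each panel.

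Within a class, members moved together from rat to rat. After subtracting group means from log2 CPM, the median Pearson r over 22 rats was 0.77 among the 91 pairs of 20S subunits, 0.74 among the 136 pairs of 19S subunits and 0.67 between 20S and 19S subunits, while it was -0.0041 between any 2 tested genes. It was 0.86 among the 10 pairs of immunoproteasome genes and 0.96 among the 3 inducible catalytic genes. Over the 17 rats without the 5 these medians were 0.83 within 20S, 0.63 within 19S, 0.68 between them, 0.80 among immunoproteasome genes and 0.81 among the inducible catalytic genes. These values share libraries and scaling and are given as a description. Psmb7, Psma7 and Psmd7 followed the mean of the other constitutive subunits most closely (r = 0.95, 0.94 and 0.94), and Psma3 least (0.28).

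The members outside the 2 classes were mixed. Psme3ip1, Psmd5, Psmd9 and Psmc3ip followed the constitutive mean, with r = 0.84, 0.75, 0.75 and 0.67. Psmb11, Psme3, Psma8 and Psmd10 did so less closely (r = 0.54, 0.36, 0.32 and 0.28). Psme4 ran against the constitutive mean, with r = -0.77, and Psme3 ran against the immunoproteasome mean, with r = -0.72. Psme4 had 236 to 281 CPM in untreated rats (median 256) and 215 to 262 CPM in ASC i.v. (median 244), with a log2 fold change of -0.11 ± 0.06 there (edgeR adjusted p = 0.53). Psme3 had 133 to 154 CPM in untreated rats (median 150) and 146 to 176 CPM in ASC i.p. (median 156), with a log2 fold change of 0.10 ± 0.06 (edgeR adjusted p = 0.77). Without the 5 rats this Psme3 fold change was 0.03. Psmd9, a chaperone of cap assembly, was 0.21 ± 0.09 higher in ASC i.v. (edgeR adjusted p = 0.52). The testis subunit Psma8, with a mean of at most 5.06 CPM in any group, had a log2 fold change of -0.59 ± 0.32 in ASC i.p. and -0.60 ± 0.36 in ASC-derived CM (edgeR adjusted p = 0.77 and 0.74). Single rats moved these values: the ASC-derived CM value was -1.06 without its rat 2 and -0.35 without its rat 4, and the ASC i.p. value ran from -0.83 to -0.45 as each rat was left out.

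Between the 2 classes the relation depended on the 5 rats. The mean log2 CPM of the 5 immunoproteasome genes and that of the 31 constitutive subunits had r = -0.028 over 22 rats after subtracting group means, and r = 0.75 over the 17 rats without the 5. In the 5 rats the constitutive mean was 7.001 to 7.17, within or just above the 6.77 to 7.15 of the other 17, while the immunoproteasome mean was 6.52 to 6.93 against 6.90 to 7.40. The immunoproteasome ranges of the 5 and the 17 rats overlapped slightly, and 4 of the 5 highest constitutive means of the 22 belonged to these 5 rats. The immunoproteasome mean minus the constitutive mean was 0.06 to 0.25 in untreated rats, -0.33 to 0.24 in ASC i.p., -0.48 to 0.25 in ASC i.v. and -0.36 to 0.34 in ASC-derived CM.

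**Figure D5:**
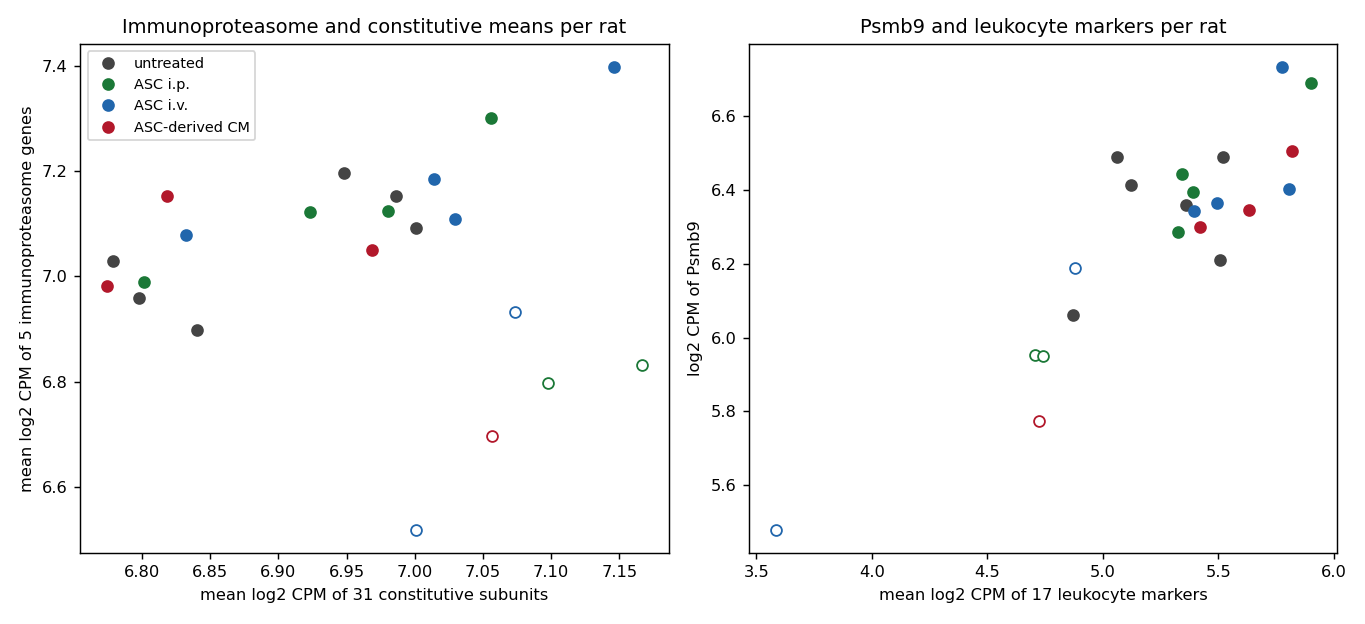
Left, the mean log2 CPM of the 5 immunoproteasome genes against that of the 31 constitutive subunits in each rat; right, log2 CPM of Psmb9 against the mean log2 CPM of 17 leukocyte markers. Colours give the group and open circles the 5 rats that stood apart, which lie below the band of the other 17 rats on the left and at the lower left on the right.

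Because the inducible genes are expressed by leukocytes, single members were set beside marker scores, with 24 relations in all (8 genes, 3 marker lists) and adjustment over the 24. Leukocyte markers (17 of 18 in the tables) had a summed TPM of 1902 to 2751 in untreated rats, 1260 to 3454 in ASC i.p., 602 to 3037 in ASC i.v. and 1321 to 3318 in ASC-derived CM. None of the 17 was called between groups. Over 22 rats, Psmb9 had Pearson r = 0.89 and Spearman rho = 0.73 with the leukocyte score (permutation adjusted p = 6e-05 and 0.0011, the unadjusted p of r being 1e-05, the smallest that 100000 permutations can give).

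Psmb8 and Psmb10 had r = 0.87 and 0.87 (rho = 0.78 and 0.73), and Psme1 and Psme2 lower values of 0.59 and 0.61 (rho = 0.47 and 0.49; permutation adjusted p of r = 0.0069 and 0.0059). The constitutive partners Psmb5, Psmb6 and Psmb7 had r = -0.32, -0.10 and -0.40 (permutation adjusted p = 0.18, 0.71 and 0.078). Without the 2 rats farthest from the median score, r was 0.80, 0.79 and 0.76 for Psmb8, Psmb9 and Psmb10, and 0.44 and 0.46 for Psme1 and Psme2. These last 2 no longer passed the threshold there (permutation adjusted p = 0.082 and 0.068). With group means subtracted over all 22 rats their r was 0.69 and 0.72 (permutation adjusted p = 0.00091 for each).

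The relation was uneven between groups and no longer passed the threshold without the 5 rats. Without them r fell to 0.56, 0.61 and 0.51 for Psmb8, Psmb9 and Psmb10 (permutation adjusted p = 0.17, 0.17 and 0.21), and to 0.30 and 0.30 for Psme1 and Psme2 (permutation adjusted p = 0.33 for each). Within the 6 untreated rats r was 0.26, 0.34 and 0.19, and within ASC i.p. and within ASC i.v. it was 0.93 or more for each of the 3 genes. The part of the leukocyte content in the members' levels was not tested.

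The interferon gamma target list, which includes Cd74 and Ciita and so is also expressed by antigen-presenting leukocytes, gave r = 0.87, 0.84 and 0.79 with Psmb8, Psmb9 and Psmb10 (rho = 0.68, 0.72 and 0.54; permutation adjusted p of r = 6e-05, 9.6e-05 and 0.00012). Without the 2 rats farthest from its median r was 0.76, 0.68 and 0.58, and without the 5 rats 0.37, 0.35 and 0.052. Within the 6 untreated rats it was 0.059, 0.18 and -0.40. Psme1 and Psme2 had r = 0.41 and 0.47 with this list (permutation adjusted p = 0.075 and 0.043). Without the 5 rats these were -0.17 and -0.083 (permutation adjusted p = 0.59 and 0.78). The constitutive partners Psmb5 and Psmb7 ran the other way, with r = -0.59 and -0.65 (rho = -0.59 and -0.58; permutation adjusted p of r = 0.0059 and 0.0022), and Psmb6 had r = -0.41 (permutation adjusted p = 0.075). Their r was -0.64, -0.69 and -0.55 without the 2 rats farthest from the median, where Psmb6 passed the threshold (permutation adjusted p = 0.023). Over the other 17 rats it was -0.43, -0.42 and -0.30 for Psmb5, Psmb7 and Psmb6, and none of the 3 passed the threshold (permutation adjusted p = 0.27, 0.27 and 0.33). On the log2(TPM + 1) scale over 22 rats it was -0.40, -0.44 and -0.30 in the same order. None of the 3 passed there either (permutation adjusted p = 0.097, 0.058 and 0.22).

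With Psmb8, Psmb9 and Psmb10 the proximal tubule score had r = -0.65, -0.68 and -0.71 (rho = -0.53, -0.56 and -0.69; permutation adjusted p of r = 0.0024, 0.0010 and 0.00072). Its r was -0.53, -0.64 and -0.63 without the 2 rats farthest from its median. Without the 5 rats it was -0.22, -0.31 and -0.42, and none passed the threshold (permutation adjusted p = 0.50, 0.33 and 0.27). Within the 6 untreated rats the proximal tubule r was -0.96, -0.80 and -0.86. Its direction was thus kept there, as was that of the leukocyte r. Psme1 and Psme2 had r = -0.62 and -0.58 with this score (permutation adjusted p = 0.0047 and 0.0068). Psmb5, Psmb6 and Psmb7 had r = 0.13, -0.0078 and 0.12 (permutation adjusted p = 0.63, 0.97 and 0.64). Neither Psme1 nor Psme2 passed without the 2 rats, and none of these genes passed without the 5 rats.

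The genes most like each class were named by Pearson r over 22 rats with group means subtracted. Closest to the immunoproteasome mean were Rbm3 (r = 0.97), Tuba1b (0.96), B2m (0.95), Arpc1b (0.95) and Fscn1 (0.94), of which B2m encodes the light chain of MHC class I molecules. Closest to the constitutive mean were Ppia (0.98), Atp6v1g1 (0.97), Gabarap (0.97), Pomp (0.96) and Atp5if1 (0.96). In the other 17 rats r was 0.91, 0.82, 0.92, 0.84 and 0.73 for the first set, in the same order, and 0.95 to 0.98 for the second. Of all tested genes, 4.19% had an r above 0.8 with the immunoproteasome mean and 4.2% with the constitutive mean.

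The wider pathway was read from 48 genes for assembly, ubiquitin receptors, ubiquitin, transcription of subunit genes and class I antigen processing, of which 42 were tested (Nfe2l1 was not analysed here). None of the 42 passed the test in either direction in any comparison, and an unadjusted p under 0.05 was reached by 1, 2 and 1 of them in the i.p., i.v. and CM groups (2.38%, 4.76% and 2.38%), beside 3.89%, 8.81% and 6.6% of all genes. Pomp, the maturation protein of the core, had 43.1 to 58.6 CPM in untreated rats (median 49.2) and 45.6 to 64.6 CPM in ASC i.v. (median 58.0), with a log2 fold change of 0.18 ± 0.10 (edgeR adjusted p = 0.52). Psmg1, an assembly chaperone, stood at 0.13 ± 0.09 in ASC i.v. (adjusted p = 0.57). On the count scale, 5 of 5 genes tested for assembly or inhibition of the proteasome had a positive fold change in both cell-treated groups. In ASC-derived CM 3 of 5 did. In the i.p., i.v. and CM groups, the fold change was positive for 12, 11 and 9 of 15 associated subunits and receptors, for 4, 3 and 3 of 5 ubiquitin genes, for 7, 6 and 6 of 9 transcription genes and for 4, 4 and 2 of 8 class I processing genes. Of all genes 46.2%, 47.5% and 49.1% were positive in the same comparisons.

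Adrm1, a ubiquitin receptor of the cap, had the smallest pathway p in ASC i.p., with 134 to 177 CPM beside 121 to 145 CPM in untreated rats and a log2 fold change of 0.17 ± 0.08 (edgeR adjusted p = 0.77). Zfand5, a zinc finger protein that stimulates the proteasome, had the smallest in ASC i.v. and in ASC-derived CM. It had 85.4 to 98.9 CPM in untreated rats (median 95.4), 75.3 to 88.0 CPM in ASC i.v. (median 80.4) and 69.8 to 95.3 CPM in ASC-derived CM (median 81.1), with log2 fold changes of -0.22 ± 0.07 and -0.21 ± 0.08 (adjusted p = 0.52 and 0.71). The ASC i.v. and untreated ranges overlapped only at their edges.

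Tap1 and Tap2, which carry the peptides into the endoplasmic reticulum, are neighbours of Psmb8 and Psmb9 on chromosome 20, in the order Tap2, Psmb8, Tap1, Psmb9. Tap1 had 97.2 to 135 CPM in untreated rats (median 106), 77.9 to 125 CPM in ASC i.p. (median 112), 62.1 to 134 CPM in ASC i.v. (median 102) and 71.2 to 141 CPM in ASC-derived CM (median 114). Its 5 lowest rats were the 5 that stood apart, as for Psmb8 and Psmb10. Tap2 had 82.2 to 101 CPM in untreated rats and 64.0 to 101 CPM in ASC i.v., with a log2 fold change of -0.18 ± 0.13 (edgeR adjusted p = 0.57).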

How the data were processed

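Kidney RNA was sequenced on a BGISEQ-500 and, per the labels, trimmed with Trim Galore (0.6.4) and quantified with kallisto (given as 0.4.6, build rn6). The authors deposited per rat the estimated counts per Entrez gene, not normalized, and the TPM of the same genes. Symbols were found for 17179 of 17334 genes. Estimated counts were rounded (14.1% of values were not whole) and tested with edgeR 4.0.16 (quasi-likelihood, TMM, filterByExpr, 4 groups in one fit, Benjamini-Hochberg at 0.05) in R 4.3.3. Log2 CPM used a prior count of 2. The TPM ratios used a pseudocount of 1 and exact permutation tests. Correlations used 100000 permutations. Alternatives were DESeq2 1.42.0 and its size factors, other filters, limma 3.58.1 on log2(TPM + 1) for genes with a mean TPM of at least 1, a surrogate variable (sva 3.50.0), fits of only the groups compared, and leaving out each rat. The 5 rats that stood apart were left out as an alternative chosen after seeing the data. Depth was alike between rats, and precision is limited by the number of rats. No 2 rats of a group agreed within counting noise.

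Members and lists were chosen with earlier results of these data known. Named genes were the immunoproteasome genes and their partners, Psme3 and Psme4, the 3 members with the smallest p in each comparison, the highest and lowest of each class, Pomp, Psmg1, Tap1, Tap2, the pathway gene with the smallest p, and the 5 genes most like each class. One gene that this rule names is not reported here. Psmd7 was named after its values were seen. Rats that received ABCB5+ cells were not analysed here.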

Additional observations from a re-analysis of the deposited data

Results flagged for a closer look

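In 128 sets of 4 or 6 rats (a gene in a group), 3 held a rat far from the others of its group by Dixon's criterion, where chance gives about 1 in 20 sets. ASC i.v. rat 6 had a log2 CPM of 6.71 for Psmb5, below the next ASC i.v. rat at 7.04, and of 3.33 for Psmc3ip, below the next at 3.73. Untreated rat 2 had a log2 CPM of 7.05 for Psme3, below the next untreated rat at 7.20, and Psme3 is one of the genes with fractional counts.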

How the results depend on the processing

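Under every alternative run, 0 of the 45 members were called in each comparison and in the test of any difference, and all 9 differences of log2 ratio stayed above the adjusted threshold. The difference of class means moved by less than its SD within the treated group, which was 0.27, 0.29 and 0.30 in the i.p., i.v. and CM groups. Those SDs include the rats that stood apart, and the SD among untreated rats was only 0.079. The immunoproteasome median changed sign in some settings. So did the constitutive median in ASC-derived CM, from 0.03 to -0.04 without the 5 rats, -0.04 with 1 surrogate variable, -0.04 on log2(TPM + 1) and -0.05 without ASC-derived CM rat 1. The difference of class means there ran from -0.19 to 0.046 as each rat was left out. What changed were signs of small fold changes that were not called and the correlations with marker scores. Each of the 24 correlations was counted once per alternative. Of these values, 84 kept their reading, 22 no longer passed the threshold, 3 newly passed it and 11 changed sign. Among those that changed sign, Psme2 with interferon gamma targets also no longer passed. Without the 5 rats none of the 24 correlations passed the threshold. The cause was not tested. No paired analysis was possible because the labels give the rats no pairing between groups. Depth was alike between rats and did not limit members other than Psma8 and Psmb11.

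Without the 5 rats that stood apart, log2 fold changes changed sign in ASC i.p. for Psma3 (0.0070), Psmb10 (0.072), Psmb8 (0.075) and Psmb9 (0.11). In ASC i.v. they did so for Psma3 (-0.0055), Psma8 (-0.096), Psmb8 (0.12) and Psmb9 (0.13), and in ASC-derived CM for Psmb10 (0.033), Psmb5 (-0.021), Psmb7 (-0.032), Psmb8 (0.11), Psmb9 (0.044), Psmc5 (-0.0083) and Psme4 (0.025). In the same setting the difference of log2 ratio became positive for Psmb8/Psmb5 in ASC-derived CM (0.12), Psmb9/Psmb6 in ASC i.p. (0.11) and ASC-derived CM (0.10), and Psmb10/Psmb7 in ASC i.v. (0.028) and ASC-derived CM (0.067). Correlations changed sign there for Psmb5, Psmb6 and Psmb7 with leukocyte markers (0.15, 0.32 and 0.18), Psme1 and Psme2 with interferon gamma targets (-0.17 and -0.083), and Psmb5 and Psmb7 with proximal tubule markers (-0.41 and -0.56).

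On the log2(TPM + 1) scale, where the median of all genes shifted below 0, fold changes changed sign in ASC i.v. for Psma3 (-0.065), Psma8 (-0.064), Psmb10 (-0.13), Psmd3 (-0.010), Psme1 (-0.052), Psme2 (-0.095) and Psme3 (-0.039). They did so in ASC i.p. for Psmd9 (-0.023), Psme1 (-0.064) and Psme2 (-0.089), and in ASC-derived CM for Psmb7 (-0.035), Psmd14 (-0.023) and Psme3 (-0.018). The r of Psmb5 and Psmb7 with proximal tubule markers was -0.18 and -0.22 on that scale, and that of Psmb6 was 0.022 with group means subtracted and 0.043 without the 2 rats farthest from the median score.

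With 1 surrogate variable, signs changed in ASC i.p. for Psmb10 (0.089), Psmb8 (0.079) and Psmb9 (0.12), in ASC i.v. for Psma8 (-0.037), Psmb8 (0.12) and Psmb9 (0.13), and in ASC-derived CM for Psmb10 (0.070), Psmb5 (-0.025), Psmb7 (-0.064), Psmb8 (0.14), Psmb9 (0.088), Psmc5 (-0.0077), Psmd14 (-0.037) and Psme3 (-0.0057). In ASC-derived CM, Psmb6, Psmb8 and Psmd9 stood at 0.00045, 0.0044 and 0.011 with the size factors of DESeq2, at 0.00050, 0.0045 and 0.010 in DESeq2 itself, and at 0.0024, 0.0051 and 0.012 with only the 2 groups in the fit, and Psmd9 at 0.00030 with no filter.

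Leaving out each rat in turn, ranges that crossed 0 in ASC i.p. were those of Psmb10 (-0.11 to 0.014), Psmb8 (-0.11 to 0.013), Psmb9 (-0.12 to 0.032) and Psme2 (-0.040 to 0.041). In ASC i.v. they were those of Psma3 (-0.018 to 0.099), Psma8 (-0.13 to 0.22), Psmb10 (-0.075 to 0.12), Psmb8 (-0.097 to 0.053), Psmb9 (-0.15 to 0.071) and Psme2 (-0.042 to 0.092). In ASC-derived CM they were those of Psmb10 (-0.14 to 0.022), Psmb5 (-0.032 to 0.13), Psmb6 (-0.079 to 0.067), Psmb7 (-0.043 to 0.088), Psmb8 (-0.090 to 0.10), Psmb9 (-0.18 to 0.033), Psmc5 (-0.019 to 0.15), Psmd9 (-0.089 to 0.054) and Psme4 (-0.057 to 0.014), and the differences of log2 ratio for Psmb8/Psmb5 (-0.20 to 0.12), Psmb9/Psmb6 (-0.24 to 0.10) and Psmb10/Psmb7 (-0.23 to 0.067).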
